A study of Homo sapiens with 12 samples.

Results

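The genes that send, carry and receive a WNT signal were examined in HT-29 cells, a human cell line from a colon adenocarcinoma, with an APC mutant genotype per the labels. The members were taken by symbol: all WNT ligand genes, all numbered frizzled (FZD) genes, the receptors LRP5, LRP6, ROR1, ROR2 and RYK, the ligand-processing genes PORCN and WLS, and the dishevelled genes DVL1, DVL2 and DVL3. The rule found 39 genes among 25528 rows, made up of 19 ligands, 2 processing genes, 10 frizzled genes, 5 other receptors and 3 dishevelled genes. RNA-seq was done on 12 libraries in 4 groups of 3. In one arm, cells infected with lentivirus carried an open reading frame for GFP (the control) or for CTNNB1, the gene of beta-catenin, and were collected 2 days after infection. In the other arm, the virus carried a hairpin, the control shNT1 or shAPC, which targets APC, and RNA came from day 1 of induction by 2 µM doxycycline. All 4 groups thus share the APC mutant background and lentiviral infection, and the arms differ in vector, day and doxycycline. One cell line was used, and the promoters that drive the constructs are not given in the sources used here. Nothing in the labels says whether the 3 libraries of a group came from separate cultures, so the p-values measure only the spread between these libraries, which may be technical.

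WNT proteins are secreted, lipid-modified ligands. PORCN attaches the lipid and WLS carries the ligand to the cell surface. At the receiving cell a ligand binds a frizzled receptor, with LRP5 or LRP6 as coreceptor for the beta-catenin branch, or with ROR1, ROR2 or RYK in other branches, and dishevelled proteins relay the signal inside the cell. In the intestinal crypt this pathway maintains stem cells, and APC acts below these members, in the complex that degrades beta-catenin. Both perturbations therefore act downstream of the genes described here, and the comparisons ask what happens to the upstream genes when the downstream end is changed.

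Levels are in TPM, a transcript abundance scaled by gene length and by library, so that genes can be compared with each other. Each library listed 14756 to 16186 genes above 0 TPM. APC ranged from 5.48 to 6.59 TPM in shAPC and from 15.8 to 17.3 TPM in shNT1, and CTNNB1 from 156 to 165 TPM in the CTNNB1 group against 144 to 149.6 TPM in GFP. Of 10 colon epithelial markers, 7 had a mean of at least 1 TPM, EPCAM among them at 1400.3 TPM or more in every library, while CDX1, CDX2 and CDH17 were below that level. None of 8 fibroblast and none of 4 endothelial markers reached 1 TPM. Of 7 immune markers only CD14 and CD68 did. The summed immune list ran from 28.8 to 30.1 TPM in GFP, 14.9 to 16.97 TPM in CTNNB1, 15.0 to 17.6 TPM in shNT1 and 8.78 to 10.9 TPM in shAPC. PTPRC, which defines leukocytes, was at most 0.0217 TPM, and CD3E and TYROBP were at 0 in all libraries. The part of the immune list in the results below was not tested.

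Promoter sequence was looked up for the members in a RefSeq table (GRCh38.p14), which held windows for 30 of the 39 genes. It held none for WNT11, WNT7B, WNT10B, FZD2, FZD3, FZD6, FZD7, FZD10 and LRP6. Shown here are the 250 bases before the start of ROR1 and WLS, called higher in both arms, and of FZD5 and DVL1, called lower in the shAPC arm, so that the values below can be read beside them. Capitals mark the GC box GGGCGG on either strand, overlapping matches included. The window of ROR1 lies at chr1:63773767-63774016 on the plus strand. Those of WLS (chr1:68232524-68232773), FZD5 (chr2:207769907-207770156) and DVL1 (chr1:1349419-1349668) lie on the minus strand.
ROR1: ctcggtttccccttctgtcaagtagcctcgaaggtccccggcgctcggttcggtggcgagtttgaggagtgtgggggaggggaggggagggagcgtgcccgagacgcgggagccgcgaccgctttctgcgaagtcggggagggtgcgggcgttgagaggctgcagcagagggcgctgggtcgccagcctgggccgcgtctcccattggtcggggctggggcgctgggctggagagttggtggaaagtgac
WLS: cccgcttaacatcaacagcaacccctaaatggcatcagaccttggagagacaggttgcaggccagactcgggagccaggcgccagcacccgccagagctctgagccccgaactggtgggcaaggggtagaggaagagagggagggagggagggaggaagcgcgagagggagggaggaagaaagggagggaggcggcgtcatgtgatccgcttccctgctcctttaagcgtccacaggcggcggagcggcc
FZD5: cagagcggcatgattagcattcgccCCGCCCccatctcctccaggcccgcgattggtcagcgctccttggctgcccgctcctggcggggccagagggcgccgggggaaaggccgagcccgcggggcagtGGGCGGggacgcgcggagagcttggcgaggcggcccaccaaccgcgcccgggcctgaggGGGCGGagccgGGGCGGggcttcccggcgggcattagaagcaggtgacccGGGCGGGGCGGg
DVL1: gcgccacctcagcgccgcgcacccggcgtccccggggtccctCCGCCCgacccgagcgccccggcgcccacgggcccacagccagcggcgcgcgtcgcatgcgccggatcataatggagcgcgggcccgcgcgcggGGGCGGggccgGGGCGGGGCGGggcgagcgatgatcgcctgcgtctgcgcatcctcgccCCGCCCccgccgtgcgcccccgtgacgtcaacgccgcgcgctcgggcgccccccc
The windows of ROR1 and WLS held 0 GC boxes, that of FZD5 held 6 and that of DVL1 held 5. These 4 windows do not stand for all called members: among those called higher in the CTNNB1 arm, the window of FZD4 held 6 GC boxes, those of WNT10A and RYK held 2 each, and the windows of PORCN held 2 and 0. At least 1 was present in 42.6% of all 35116 windows and in 26 of 35 member windows (74.3%). The letters of the TCF/LEF motif (CTTTG followed by AA, AT, TA or TT, either strand) were in 12% of all windows and in 0 of the 35 member windows. WNT11 and FZD2, which rose in both arms, have no window here, so these counts do not cover them. The windows shown held 24 CpG dinucleotides in ROR1, 14 in WLS, 30 in FZD5 and 49 in DVL1, against a median of 11 over all windows. A further WLS window, at chr1:68232547-68232796, held 10 CpG dinucleotides and 0 GC boxes.

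HT-29 cells carried transcripts of few ligands and of most receptors. Of the 39 members, 19 had a mean of at least 1 TPM over the 12 libraries, among them 3 of 19 ligands (WNT7B, WNT11 and WNT10A), 7 of 10 frizzled genes, 4 of 5 other receptors and all 3 dishevelled genes. WLS was the most abundant member, with a mean of 137 TPM, followed by LRP5 at 97.0 and RYK at 93.9 TPM. The most abundant frizzled gene was FZD6 at 42.6 TPM, and the most abundant ligand, WNT7B, averaged 12.5 TPM. A further 16 ligands stayed at 0.821 TPM or less in every library. WNT2B ranged from 0.200 to 0.522 TPM, WNT10B from 0.110 to 0.821 TPM, WNT3 from 0.0327 to 0.197 TPM and WNT4 from 0.0471 to 0.121 TPM. WNT8B was above 0 in 6 libraries and reached 0.250 TPM, and WNT6, WNT5A, WNT7A, WNT5B, WNT1, WNT16 and WNT2 reached at most 0.0941 TPM in 1 to 3 libraries. WNT3A, WNT8A, WNT9A and WNT9B were at 0 in all libraries, as were FZD9 and FZD10, and ROR2 reached 0.0314 TPM in a single library.

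**Figure D1:**
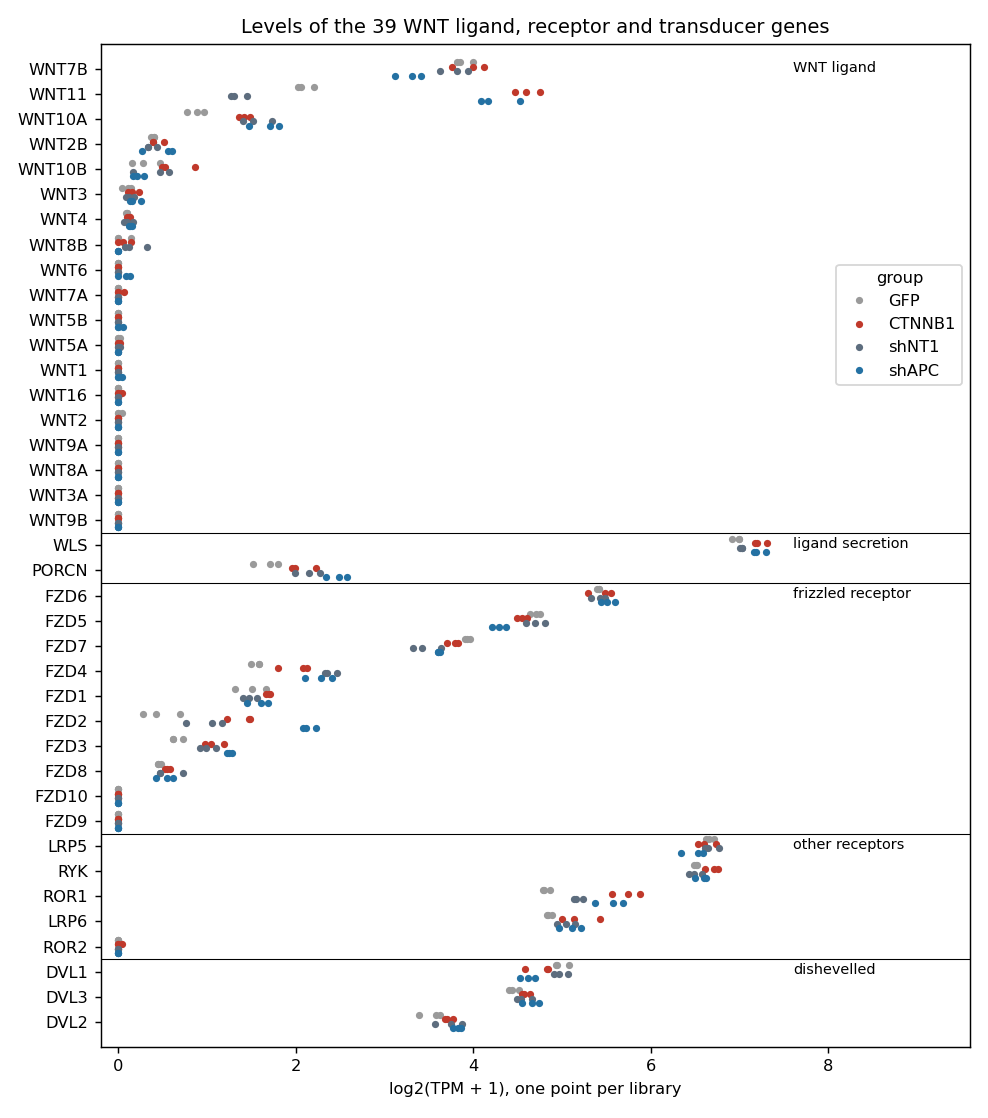
Level of each of the 39 members in each library, as log2(TPM + 1) on the x axis, with 1 point per library, colours for the 4 groups and lines between the roles. Most ligands lie at or near 0, whereas WLS, LRP5 and RYK lie highest, and WNT11 is split between control and perturbed libraries.

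Each arm was compared with limma on log2(TPM + 1), among genes with a mean of at least 1 TPM over its 6 libraries, and a gene was called at a Benjamini-Hochberg adjusted p under 0.05 over all genes tested. In the CTNNB1 arm 18 members were tested and 9 were called, all higher, where 23.5% of all genes were called, 16.3% higher and 7.16% lower. In the shAPC arm 19 were tested and 7 were called, 4 higher and 3 lower, where 22.1% of all genes were called, 7.24% higher and 14.9% lower. The median log2 difference of the members tested was 0.19 in the CTNNB1 arm, against 0.06 over all genes, and 0.10 in the shAPC arm, against -0.04. The groups did not overlap for 14 members in the CTNNB1 arm (43.2% of all genes) and for 10 in the shAPC arm (40.9% of all genes). FZD2 and WNT10A entered the CTNNB1 comparison only through the CTNNB1 group, their GFP means being under 1 TPM. They therefore add nothing to the counts of calls and of groups without overlap in that arm. The member median of 0.19 includes both. The balance of directions depended on scaling: with median-ratio scaling 7 members were called higher and 3 lower in the CTNNB1 arm, and 5 higher and 3 lower in the shAPC arm. Over all genes, higher calls went from 69.5% to 49.4% of calls in the CTNNB1 arm and from 32.8% to 47.6% in the shAPC arm. Of the called members, WNT11, ROR1 and WLS were called higher in both arms. FZD2 was too, with the limit given above for its call in the CTNNB1 arm.

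**Figure D2:**
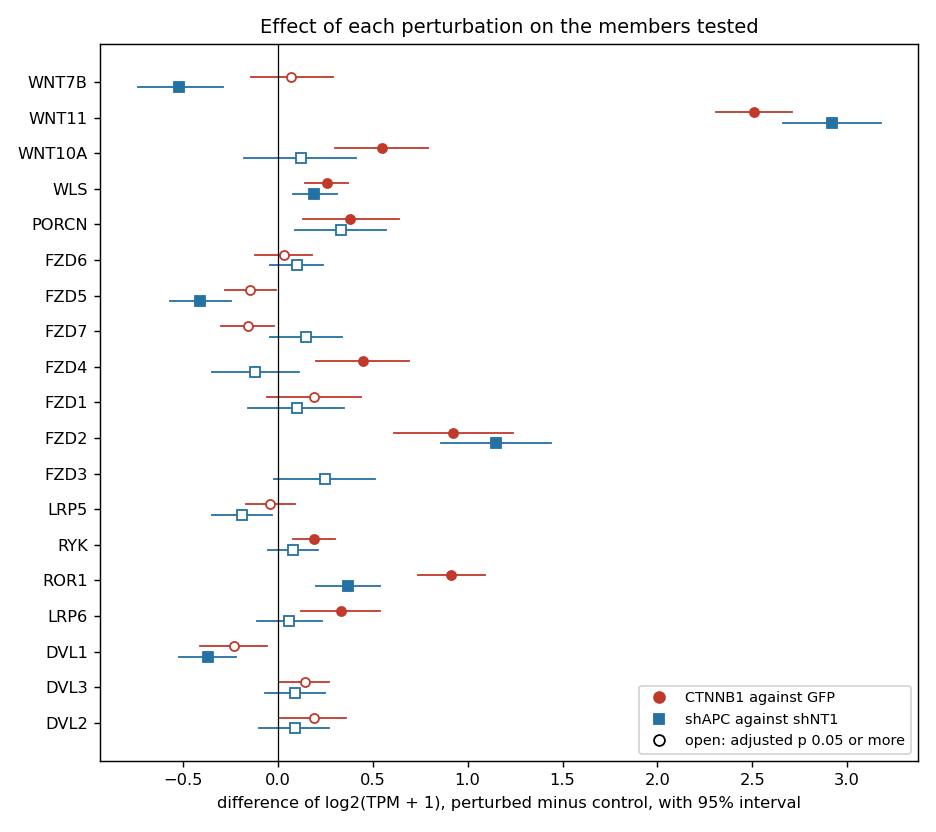
Difference of log2(TPM + 1), perturbed minus control, for each member tested in an arm, with the 95% limma interval, circles for CTNNB1 against GFP and squares for shAPC against shNT1. Filled symbols passed the adjusted p threshold of 0.05, and WNT11 lies farthest to the right in both arms, at 2.51 and 2.92.

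Among the ligands, WNT11, which is known mainly for beta-catenin-independent signalling, rose in both arms and replaced WNT7B as the most abundant ligand transcript. It is annotated on chromosome 11 (76186325 to 76210736, minus strand, GENCODE release 29 on GRCh38). WNT11 read 3.07, 3.15 and 3.62 TPM in GFP and 21.2, 26.0 and 23.1 TPM in CTNNB1. It read 1.47, 1.73 and 1.40 TPM in shNT1 and 16.01, 22.0 and 16.9 TPM in shAPC. Perturbed and control libraries were far apart in both arms, and the GFP libraries all lay above the shNT1 libraries. The ratio of mean TPM was 7.13 in the CTNNB1 arm (log2 difference 2.51, SE 0.09, limma adjusted p = 5.7e-07) and 11.9 in the shAPC arm (2.92, SE 0.12, limma adjusted p = 3.5e-07). These are bulk libraries, so more transcript per cell and more cells with the transcript cannot be told apart.

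WNT7B, a ligand of the beta-catenin branch on chromosome 22 (45920362 to 45977129, minus strand), was called in the shAPC arm alone. It read 13.4, 13.1 and 14.9 TPM in GFP and 12.5, 15.0 and 16.3 TPM in CTNNB1, and the groups overlapped (0.07, 95% interval -0.14 to 0.29, limma adjusted p = 0.6). It read 11.3, 13.1 and 14.3 TPM in shNT1 and 8.91, 9.59 and 7.65 TPM in shAPC. The shAPC libraries all lay below the shNT1 libraries, and WNT7B fell by 0.52 on the log2 scale (SE 0.10, limma adjusted p = 0.0059).

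WNT10A, another ligand of the beta-catenin branch, was a minor transcript. It read 0.843, 0.713 and 0.949 TPM in GFP and 1.68, 1.56 and 1.80 TPM in CTNNB1 (0.55, SE 0.11, limma adjusted p = 0.0064). It read 1.64, 1.86 and 2.33 TPM in shNT1 and 2.51, 2.27 and 1.78 TPM in shAPC, where the groups overlapped (0.12, 95% interval -0.18 to 0.41, limma adjusted p = 0.57). The CTNNB1 libraries lay above GFP, and none exceeded the highest shNT1 library. The ratio of mean TPM was 2.01 in the CTNNB1 arm, and at this level the added 1 TPM shrinks the log2 difference. WNT10A was tested in that arm only through the CTNNB1 group, so its call there adds nothing to the count.

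The summed level of all 19 ligands went from 18.6 ± 1.3 TPM in GFP to 40.9 ± 3.7 TPM in CTNNB1, and from 17.3 ± 1.9 TPM in shNT1 to 30.1 ± 4.1 TPM in shAPC (SD, n = 3 each). WNT11 made up 17.6 ± 0.55% of it in GFP and 57.2 ± 2.5% in CTNNB1, 8.95 ± 1.4% in shNT1 and 60.7 ± 4.1% in shAPC. WNT7B made up 73.9 ± 0.29% in GFP and 35.7 ± 2.5% in CTNNB1, and 74.5 ± 1.2% in shNT1 and 29.1 ± 1.8% in shAPC. WNT7B was the more abundant of these ligands in every control library, and WNT11 in every perturbed library. The sums and shares were not tested.

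**Figure D3:**
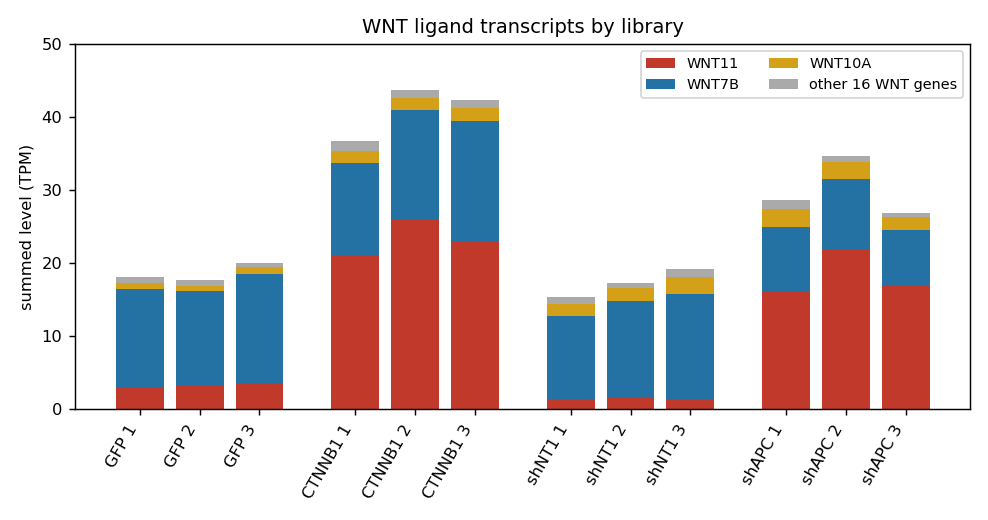
Summed TPM of the WNT ligand genes in each library, stacked by gene, with WNT11, WNT7B and WNT10A shown apart and the remaining 16 ligands together. The 6 perturbed libraries reach 26.9 to 43.7 TPM and the 6 control libraries 15.4 to 20.1 TPM, and the gain is in the WNT11 segment.

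The ligand-processing genes were higher in the perturbed groups by small amounts. WLS, the carrier of lipid-modified WNT proteins, read 119.7, 126 and 127 TPM in GFP and 145, 157 and 143 TPM in CTNNB1. It read 127, 129 and 129.9 TPM in shNT1 and 143, 156 and 145 TPM in shAPC. No perturbed library overlapped its controls. WLS rose by 0.26 in the CTNNB1 arm (SE 0.05, limma adjusted p = 0.0068) and by 0.19 in the shAPC arm (SE 0.05, limma adjusted p = 0.024). The shAPC call was lost when shNT1 replicate 1 or 2 or shAPC replicate 2 or 3 was left out, at adjusted p between 0.051 and 0.085 in limma. It was also lost without the variance trend (adjusted p = 0.056 in limma) and with the replicate block (adjusted p = 0.065 in limma).

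PORCN, the acyltransferase of WNT proteins, stood at 2.27, 2.48 and 1.87 TPM in GFP and 2.98, 3.68 and 2.89 TPM in CTNNB1. In the hairpin arm it stood at 3.85, 2.96 and 3.44 TPM in shNT1 and 4.96, 4.60 and 4.06 TPM in shAPC. The groups did not overlap in either arm, and no CTNNB1 library exceeded the highest shNT1 library. The difference was 0.38 in the CTNNB1 arm (SE 0.11, limma adjusted p = 0.037) and 0.33 in the shAPC arm (95% interval 0.09 to 0.57, limma adjusted p = 0.054). The first of these calls was lost, with limma adjusted p between 0.051 and 0.13, without any one of the 3 GFP libraries or without CTNNB1 replicate 2. It was also lost with median-ratio scaling (0.34, limma adjusted p = 0.067), quantile normalization (0.25, limma adjusted p = 0.15) and no filter (limma adjusted p = 0.079). The shAPC difference passed without shNT1 replicate 1 (limma adjusted p = 0.047), with median-ratio scaling (0.37, limma adjusted p = 0.029), without the variance trend (limma adjusted p = 0.046) and in one fit of all 4 groups (limma adjusted p = 0.044).

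Among the frizzled receptors, the summed level averaged between 85.1 and 86.1 TPM in the 4 groups, and its make-up differed. FZD2, a receptor used in both branches and annotated on chromosome 17 (44557459 to 44559570, plus strand), rose in both arms. It read 0.340, 0.620 and 0.216 TPM in GFP and 1.79, 1.77 and 1.33 TPM in CTNNB1. It read 1.07, 1.24 and 0.699 TPM in shNT1 and 3.34, 3.69 and 3.23 TPM in shAPC. The groups did not overlap in either arm, and shNT1 libraries lay above all GFP libraries. The ratio of mean TPM was 4.16 in the CTNNB1 arm (log2 difference 0.92, SE 0.14, limma adjusted p = 0.0016) and 3.40 in the shAPC arm (1.15, SE 0.13, limma adjusted p = 0.00024). At these low levels the added 1 TPM shrinks the log2 difference. In the CTNNB1 arm FZD2 was tested only through the CTNNB1 group, so its call there adds nothing to the count.

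FZD5, a frizzled receptor of the intestinal epithelium on chromosome 2 (207762586 to 207769563, minus strand), was lower in both perturbed groups and was called in one. It read 25.0, 23.9 and 25.8 TPM in GFP and 23.4, 22.3 and 21.5 TPM in CTNNB1 (-0.15, 95% interval -0.28 to -0.01, limma adjusted p = 0.1). It read 23.1, 24.8 and 26.9 TPM in shNT1 and 18.5, 19.6 and 17.6 TPM in shAPC. No perturbed library overlapped its controls. In the shAPC arm FZD5 fell by 0.41 (SE 0.07, limma adjusted p = 0.0034). In the CTNNB1 arm it passed with median-ratio scaling (-0.21, limma adjusted p = 0.015), under quantile normalization (-0.21, limma adjusted p = 0.018) and without CTNNB1 replicate 1 (-0.18, limma adjusted p = 0.032). In the authors' deposited table it was also lower there (-0.23, adjusted p = 0.0071).

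FZD4, a receptor for the ligand norrin as well as for WNT proteins, rose in the CTNNB1 arm. It read 1.99, 2.01 and 1.82 TPM in GFP and 3.37, 3.22 and 2.49 TPM in CTNNB1 (0.45, SE 0.11, limma adjusted p = 0.017). It read 4.09, 4.04 and 4.51 TPM in shNT1 and 3.85, 4.28 and 3.30 TPM in shAPC, with overlapping groups (-0.12, 95% interval -0.35 to 0.11, limma adjusted p = 0.44). Every hairpin library but shAPC replicate 3 lay above all CTNNB1 libraries. The call was lost without GFP replicate 3 (adjusted p = 0.065 in limma) or CTNNB1 replicate 2 (adjusted p = 0.067 in limma), and under quantile normalization (adjusted p = 0.051 in limma). FZD4 overlaps PRSS23 on the other strand, and the labels do not state strandedness. PRSS23 averaged 8.79 ± 0.17 TPM in GFP, 26.4 ± 1.8 in CTNNB1, 6.17 ± 0.51 in shNT1 and 20.1 ± 1.4 in shAPC (SD, n = 3 each), and its part in the FZD4 result was not tested.

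Of the remaining frizzled genes none was called in either arm. FZD6, the most abundant, read 41.1, 41.8 and 41.8 TPM in GFP and 45.7, 43.8 and 38.2 TPM in CTNNB1, and 41.9, 39.1 and 43.8 TPM in shNT1 and 42.2, 47.2 and 44.4 TPM in shAPC. Both pairs of groups overlapped (0.03, 95% interval -0.12 to 0.18, and 0.10, 95% interval -0.04 to 0.24). FZD7 averaged 14.3 ± 0.29 TPM in GFP and 12.7 ± 0.58 TPM in CTNNB1, with no overlap (-0.16, limma adjusted p = 0.095). It was called lower there with median-ratio scaling (-0.22, limma adjusted p = 0.025) and quantile normalization (-0.23, limma adjusted p = 0.02). Its mean was 10.0 ± 1.2 TPM for shNT1 and 11.2 ± 0.12 TPM for shAPC (0.15, limma adjusted p = 0.24), and passed there without shNT1 replicate 3 (0.24, limma adjusted p = 0.047). FZD1 averaged between 1.80 and 2.22 TPM in the 4 groups (0.19 and 0.10, limma adjusted p = 0.24 and 0.58).

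FZD3 was too low to be tested in the CTNNB1 arm, where it averaged 0.575 ± 0.069 TPM in GFP and 1.11 ± 0.16 TPM in CTNNB1. With hairpins it averaged 1.00 ± 0.13 and 1.38 ± 0.045 TPM (SD, n = 3 each), with no overlap (0.25, limma adjusted p = 0.17; 0.037 without a variance trend). In the authors' deposited tables FZD3 passed in both arms (0.88, adjusted p = 0.011, and 0.49, adjusted p = 0.044). FZD8 stayed between 0.343 and 0.653 TPM in all libraries. FZD1, FZD2 and FZD7 are close paralogs, and how reads shared between them were assigned is not stated.

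Among the other receptors, ROR1, a receptor tyrosine kinase-like protein of the beta-catenin-independent branch, rose in both arms. It is annotated on chromosome 1 (63774022 to 64181498, plus strand). ROR1 read 26.6, 26.7 and 28.2 TPM in GFP and 57.8, 52.5 and 46.4 TPM in CTNNB1. It read 34.5, 34.0 and 36.8 TPM in shNT1 and 46.7, 50.3 and 40.4 TPM in shAPC. Perturbed and control libraries did not overlap in either arm. The rise was 0.91 in the CTNNB1 arm (SE 0.08, limma adjusted p = 5.5e-05) and 0.37 in the shAPC arm (SE 0.08, limma adjusted p = 0.0086). All shNT1 libraries exceeded all GFP libraries, so the controls of the arms stood at different levels.

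LRP6, a coreceptor of the beta-catenin branch, was at 28.7, 27.4 and 27.7 TPM in GFP and 41.9, 34.2 and 30.9 TPM in CTNNB1. It was at 32.0, 29.8 and 34.3 TPM in shNT1 and 33.7, 36.1 and 30.3 TPM in shAPC. All CTNNB1 libraries lay above GFP, with a wide spread, and the hairpin groups overlapped. The rise in the CTNNB1 arm was 0.33 (SE 0.09, limma adjusted p = 0.033), and the difference in the shAPC arm was 0.06 (95% interval -0.11 to 0.23, limma adjusted p = 0.64). The call was lost without any one of the 3 GFP libraries or without CTNNB1 replicate 2, at adjusted p from 0.063 to 0.098 in limma. It was also lost under quantile normalization (adjusted p = 0.051 in limma), with no filter (adjusted p = 0.096 in limma) and without the variance trend (adjusted p = 0.058 in limma). In the authors' deposited table LRP6 did not pass (0.27, adjusted p = 0.15).

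LRP5, the other coreceptor, had the highest mean over the 12 libraries of the 5 receptors outside the frizzled family. In the perturbed groups RYK averaged above LRP5, at 102 against 97.6 TPM in CTNNB1 and 94.3 against 88.9 TPM in shAPC. In the CTNNB1 arm the levels of LRP5 were close. LRP5 read 97.5, 99.8 and 103 TPM in GFP and 91.2, 106 and 95.8 TPM in CTNNB1, with overlap (-0.04, 95% interval -0.17 to 0.09). It read 96.3, 99.2 and 108 TPM in shNT1 and 91.3, 95.4 and 80.0 TPM in shAPC, with no overlap (-0.19, 95% interval -0.35 to -0.03, limma adjusted p = 0.092). LRP5 was called in neither arm. RYK, a WNT-binding pseudokinase receptor, averaged 89.6 ± 1.1 TPM in GFP and 102 ± 5.3 TPM in CTNNB1 (0.19, SE 0.05, limma adjusted p = 0.025). It missed the threshold with median-ratio scaling (0.13, limma adjusted p = 0.057) and without the variance trend (limma adjusted p = 0.054), and likewise without any one of the GFP libraries or CTNNB1 replicate 2 (adjusted p from 0.07 to 0.11 in limma). With the hairpins RYK stood at 89.2 ± 4.7 and 94.3 ± 4.5 TPM (0.08, limma adjusted p = 0.36), and was called under quantile normalization (0.17, limma adjusted p = 0.034).

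**Figure D4:**
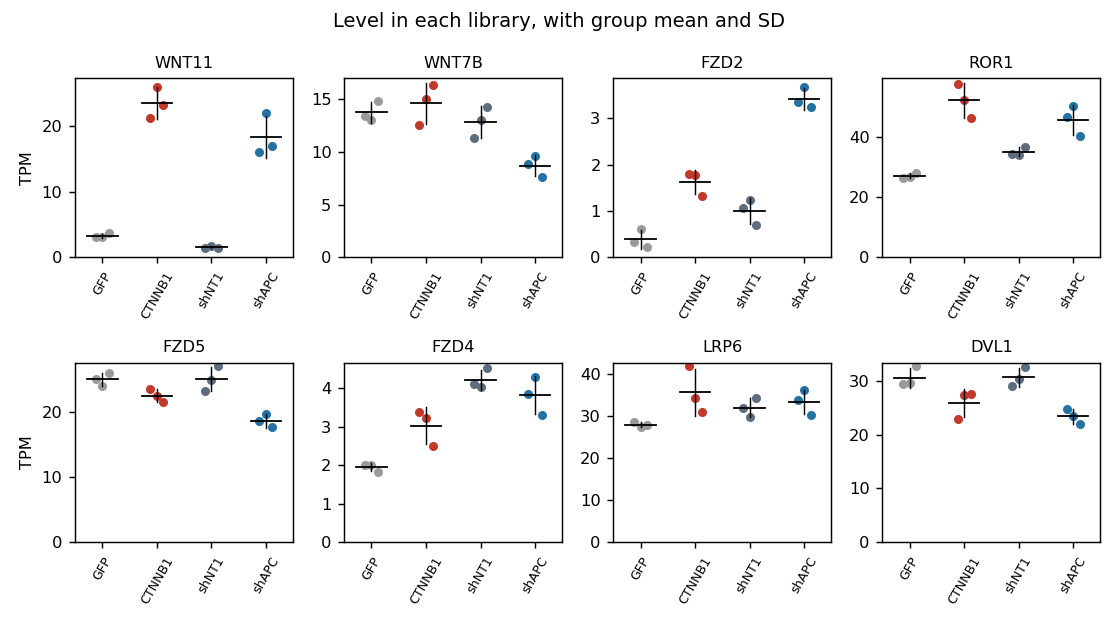
TPM of 8 members in each library (points), with the group mean (horizontal line) and SD (vertical line), each panel with its own y axis starting at 0. WNT11, FZD2 and ROR1 lie above the control in both arms, and WNT7B lies below it in shAPC. FZD5 and DVL1 lie below the control in both arms and were called in the shAPC arm alone. FZD4 and LRP6 differ in the CTNNB1 arm.

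Among the dishevelled genes, whose proteins join frizzled receptors to the downstream complex, the 3 paralogs were not alike. DVL1, on chromosome 1 (1335276 to 1349350, minus strand), read 29.4, 29.6 and 32.8 TPM in GFP and 22.9, 27.3 and 27.6 TPM in CTNNB1. It read 29.04, 30.3 and 32.5 TPM in shNT1 and 24.8, 23.5 and 22.0 TPM in shAPC. The perturbed libraries lay below their controls in both arms. DVL1 fell by 0.37 in the shAPC arm (SE 0.07, limma adjusted p = 0.0038), and in the CTNNB1 arm its difference was -0.23 (SE 0.08, limma adjusted p = 0.061). In that arm it passed with median-ratio scaling (-0.30, limma adjusted p = 0.042), in one fit of all 4 groups (-0.23, limma adjusted p = 0.038) and without CTNNB1 replicate 3 (-0.28, limma adjusted p = 0.042).

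DVL3 averaged 20.9 ± 0.90 TPM in GFP and 23.1 ± 0.81 TPM in CTNNB1, and 22.6 ± 1.4 TPM in shNT1 and 24.1 ± 1.7 TPM in shAPC. DVL2 averaged 10.6 ± 0.99 and 12.2 ± 0.44 TPM, and 12.3 ± 1.4 and 13.1 ± 0.46 TPM, in the same order (SD, n = 3 each). Neither was called in either arm, with differences of 0.14 and 0.09 for DVL3 and of 0.19 and 0.09 for DVL2. DVL1 made up 49.3 ± 0.73% of the summed dishevelled level in GFP and 42.3 ± 2.1% in CTNNB1, and 46.7 ± 1.4% in shNT1 and 38.6 ± 0.53% in shAPC. DVL3 made up 33.6 ± 0.98% in GFP and 37.8 ± 1.5% in CTNNB1, and 34.5 ± 1.2% in shNT1 and 39.7 ± 0.94% in shAPC.

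A single limma fit of all 12 libraries tested whether a member's 2 effects differed, the effect of shAPC being subtracted from that of CTNNB1. Of 19 members tested WNT7B, FZD4 and ROR1 were called, all 3 positive, where 16.1% of all genes were called, 13.3% positive and 2.76% negative. The difference was 0.59 for WNT7B (SE 0.15, limma adjusted p = 0.018), 0.57 for FZD4 (SE 0.15, limma adjusted p = 0.022) and 0.54 for ROR1 (SE 0.12, limma adjusted p = 0.0083). The median difference of all genes was 0.11 and was 0 with median-ratio scaling, where ROR1 (0.43, limma adjusted p = 0.014) and FZD4 (0.48, limma adjusted p = 0.036) passed and WNT7B did not (0.49, limma adjusted p = 0.052). WNT7B also missed the threshold with no filter (limma adjusted p = 0.056) and without GFP replicate 2 (limma adjusted p = 0.052) or shAPC replicate 3 (limma adjusted p = 0.053), and FZD4 without shAPC replicate 3 (limma adjusted p = 0.061). For WNT11 the difference was -0.41 (95% interval -0.74 to -0.07, limma adjusted p = 0.09), and it passed without shAPC replicate 1 (-0.49, limma adjusted p = 0.048), with a pseudocount of 0.1 (-0.69, limma adjusted p = 0.021) and under quantile normalization (-0.62, limma adjusted p = 0.028). For FZD2 it was -0.23 (95% interval -0.64 to 0.19, limma adjusted p = 0.45). For FZD7 it was -0.31 (limma adjusted p = 0.059), and it passed with median-ratio scaling (-0.42, limma adjusted p = 0.013), under quantile normalization (-0.43, limma adjusted p = 0.013) and without shNT1 replicate 3 (-0.40, limma adjusted p = 0.012). For FZD5 it was 0.26 (limma adjusted p = 0.072), and it passed without shNT1 replicate 1 (0.31, limma adjusted p = 0.047).

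Genes that act on these members were taken from textbook lists, whose counts can be read against the 23.5% (CTNNB1 arm) and 22.1% (shAPC arm) of all genes called. On R-spondin signalling and receptor turnover, where ZNRF3 and RNF43 remove frizzled receptors from the membrane and LGR receptors counter them, 4 of 9 genes were tested. In the CTNNB1 arm 2 were called higher and 1 lower, with LGR5 rising most (1.38, limma adjusted p = 3.8e-06) and LGR4 falling by 0.28 (limma adjusted p = 0.0071). In the shAPC arm 3 were called higher and 1 lower, with LGR5 again (1.21, limma adjusted p = 2.4e-05) and LGR4, which fell by 0.76 from 172 ± 11 to 101 ± 6.4 TPM (SD, n = 3 each, limma adjusted p = 4.6e-05).

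On ligand secretion and trafficking, 9 of 9 genes were tested and 2 were called in each arm, 1 higher and 1 lower, a share close to that of all genes. The higher one was NOTUM, an extracellular enzyme that strips the lipid from WNT proteins. NOTUM averaged 0.0974 ± 0.095 TPM in GFP and 1.99 ± 0.58 TPM in CTNNB1, then 0.133 ± 0.12 in shNT1 and 3.54 ± 0.74 in shAPC (SD, n = 3 each). It was tested only because the perturbed groups were high, so its call adds nothing to these counts. The lower ones were VPS29, a retromer subunit, in the CTNNB1 arm (-0.24, limma adjusted p = 0.0043) and TMED10, a cargo receptor, in the shAPC arm (-0.27, limma adjusted p = 0.0041).

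On coreceptors and ligand-binding partners, 2 of 6 genes tested were called in the CTNNB1 arm, both higher, and 3 of 7 in the shAPC arm, 1 higher and 2 lower. KREMEN1, a receptor for the DKK antagonists, rose most in both (0.75, limma adjusted p = 7.9e-05, and 0.77, limma adjusted p = 8.8e-05). SDC4, a heparan sulfate proteoglycan, fell by 0.59 in the shAPC arm (limma adjusted p = 8.4e-05).

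On kinases and regulators that act on dishevelled or LRP6, 5 of 14 tested were called in the CTNNB1 arm, all higher, and 2 of 15 in the shAPC arm, 1 higher and 1 lower. NKD1, a dishevelled-binding inhibitor, rose most in both, from 0.0443 to 4.34 TPM and from 0.12 to 6.48 TPM on average (2.35, limma adjusted p = 2.1e-06, and 2.73, limma adjusted p = 6.1e-07). NKD1 was tested only because the perturbed groups were high, so its call adds nothing to these counts. The other 4 calls in the CTNNB1 arm, AMER1, GSK3B, CSNK1G2 and KLHL12, were between 0.19 and 0.25 and were lost with median-ratio scaling (adjusted p from 0.057 to 0.09 in limma). CAPRIN2, an LRP6-binding protein, fell by 0.54 in the shAPC arm (limma adjusted p = 0.0016).

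On planar cell polarity and other beta-catenin-independent signalling, 5 of 17 genes tested were called in the CTNNB1 arm, all higher, and 6 of 17 in the shAPC arm, 3 higher and 3 lower. In the CTNNB1 arm that share is near that of all genes. PTK7, a WNT coreceptor of the polarity branch, rose most in both, going from 45.9 ± 3.1 TPM in GFP to 106 ± 8.5 TPM with CTNNB1 (1.19, limma adjusted p = 8.1e-06) and from 58.5 ± 3.2 TPM in shNT1 to 133 ± 8.5 TPM with shAPC (1.18, limma adjusted p = 2e-06, SD, n = 3 each). VANGL2 and CELSR2, both core polarity proteins, were also called higher in each arm, VANGL2 by 0.59 and 0.61 and CELSR2 by 0.60 and 0.59. CELSR2 averaged 0.715 TPM in GFP and 1.60 TPM in CTNNB1, so it was tested in that arm only through the CTNNB1 group and its call there adds nothing to the count. CAMK2D, a calcium-dependent kinase, fell by 0.37 in the shAPC arm (limma adjusted p = 0.0024). The medians of these 5 lists lay between 0.05 and 0.39 in the CTNNB1 arm and between -0.08 and 0.56 in the shAPC arm, against 0.06 and -0.04 over all genes.

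The authors' deposited limma tables hold all 39 members. In the authors' deposited table for CTNNB1 8 members had an adjusted p under 0.05, of which 5 were also called here, and in that for APC 8 did, of which 7 were called here. In the CTNNB1 comparison WLS, PORCN, RYK and LRP6, called higher here, did not pass there (limma adjusted p = 0.095, 0.14, 0.058 and 0.15). FZD5 and FZD7, not called here, passed there as lower (-0.23 and -0.24, limma adjusted p = 0.0071 and 0.023), and FZD3, not tested here, passed as higher. For WNT11 the authors' deposited tables give 2.76 and 3.57, for FZD2 2.12 and 1.83, and for ROR1 0.87 and 0.42. For WNT7B and DVL1 in the APC comparison the authors' deposited table gives -0.52 and -0.34.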

How the data were processed

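RNA-seq measured expression in 12 HT-29 libraries. The submitters' processing notes name STAR 2.7.3a, limma and hg38, and the quantification tool and annotation are not given in the sources used here. The authors deposited TPM per gene, with each library summing to 1000000, and per the file headers limma tables of log2 fold changes with p-values and adjusted p-values. Since TPM does not hold read numbers, library depth is unknown and no detection limit is given. Groups and replicate numbers came from the sample titles.

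Here limma 3.58.1 (R 4.3.3) was fitted per arm to log2(TPM + 1) of all genes averaging 1 TPM or more, with a mean-variance trend, and Benjamini-Hochberg adjustment covered all genes tested. The difference between arms used all 12 libraries. The fits were also run on simulated data with known changes in genes of at least 5 TPM. That run does not cover changes in genes near 1 TPM. All members with a mean of at least 1 TPM are named; values per library are given for those called in an arm with an absolute log2 difference of at least 0.3 and for the most abundant of each role. From each textbook list the strongest called rise and fall are named; VANGL2, CELSR2 and the 4 small kinase and regulator calls were added after their values were seen. The members and lists were chosen with earlier results of these data known. Gene positions are from GENCODE release 29. The settings also tried were quantile normalization, median-ratio scaling, a level filter of 5 TPM or none, a pseudocount of 0.1, a fit without the variance trend, a replicate block, one fit of all 4 groups and leaving out each library.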

Additional observations from a re-analysis of the deposited data

Results flagged for a closer look

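For 3 of 19 members the CTNNB1 and shAPC effects differed by the test of the difference itself (the former minus the latter, limma on 12 libraries), a share close to the 16.1% of all genes called. For WNT7B the difference was 0.59 on the log2 scale (95% interval 0.27 to 0.91, limma adjusted p = 0.018), with effects of 0.07 and -0.52. For FZD4 it was 0.57 (95% interval 0.25 to 0.89, limma adjusted p = 0.022), with effects of 0.45 and -0.12. For ROR1 it was 0.54 (95% interval 0.29 to 0.80, limma adjusted p = 0.0083), with effects of 0.91 and 0.37. In FZD4 and ROR1 the control groups also stood apart, at 1.94 and 4.22 TPM and at 27.2 and 35.1 TPM in GFP and shNT1. Vector, collection day and doxycycline differ between the arms and cannot be told apart from the difference.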

How the results depend on the processing

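Over the alternatives that kept all libraries, 319 of 351 recomputed member values kept their direction and side of the threshold, 13 lost a call, 14 gained one and 5 changed sign. Leaving out 1 library kept 304 of 339, with 21 calls lost, 6 gained and 8 sign changes. Both tallies cover 47 results, which include the difference between arms for only some members. Differences not counted include those for FZD7, whose gained calls are given above, and for WLS, DVL2 and DVL3. WNT11 and ROR1 are in neither set of lost calls in either arm. FZD2 lost no call in the settings that tested it, which were not all of them. In the CTNNB1 arm FZD2 fell under the filter of 1 TPM when any CTNNB1 library was left out. At a mean TPM of at least 5 FZD2 was tested in neither arm. Among the counted values, the sign changes with all libraries kept were in FZD6, PORCN and FZD2. FZD6 in the CTNNB1 arm was -0.03 (median-ratio) and -0.01 (quantile). The difference between arms for PORCN was -0.03 and -0.05 under the same settings. The difference for FZD2 went from -0.23 to 0.18 with a pseudocount of 0.1 (limma adjusted p = 0.45 and 0.78). Outside the count, the difference for WLS went from 0.06 to -0.05 (median-ratio) and -0.02 (quantile). That for DVL3 went from 0.05 to -0.06 under both settings, and that for DVL2 from 0.10 to -0.02 (quantile). Without single libraries FZD6 ranged from -0.02 to 0.10, LRP5 from -0.10 to 0.01 and WNT7B from -0.0031 to 0.17 in the CTNNB1 arm, LRP6 from -0.00081 to 0.12 in the shAPC arm, and the PORCN difference from -0.03 to 0.13. The cause was not tested.

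The count of called members in the CTNNB1 arm was 5 at a mean TPM of at least 5, which tests fewer genes, and 4 to 9 without single libraries (4 without CTNNB1 replicate 2, 5 without GFP replicate 3). In the shAPC arm it was 6 to 8. For the difference it was 5 under quantile normalization and 1 to 4 without single libraries (1 without shAPC replicate 3). Over all genes, calls ranged from 1499 to 3190 in the CTNNB1 arm, with the values under 2730 by more than 1.5 times being 1617, 1499 and 1705 without GFP replicates 1, 2 and 3 and 1760 without CTNNB1 replicate 2. They ranged from 1484 (without shAPC replicate 3; 1646 without replicate 2) to 2252 in the shAPC arm, against 2615, and from 995 to 2143 for the difference, against 1885 (1092 and 995 without GFP replicates 1 and 2, 1246 and 1021 without shAPC replicates 2 and 3).

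Same-numbered libraries correlated in their deviations from the group means by 0.21, 0.076 and 0.12 in the CTNNB1 arm and by -0.14, 0.0025 and -0.21 in the shAPC arm. Each CTNNB1 library correlated best with the GFP library of its own number. GFP replicate 2 stood about even between CTNNB1 replicates 2 and 3 (0.0757 and 0.076). The shAPC libraries did not all correlate best with their own number. The main fits did not pair the libraries, and pairing by number in the CTNNB1 arm was not excluded. Under the replicate block the calls numbered 2895 genes for CTNNB1, 1767 for shAPC and 1145 for the difference. With the block 10, 6 and 3 members were called, DVL1 being gained in the CTNNB1 arm (-0.23, limma adjusted p = 0.031) and WLS lost in the shAPC arm (0.19, limma adjusted p = 0.065).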

Other observations

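Some WNT ligand genes lie next to each other in the genome. WNT6 and WNT10A lie 6.13 kb apart on chromosome 2 (GENCODE release 29). WNT10A averaged 1.66 TPM over the 12 libraries, whereas WNT6 averaged 0.0127 TPM and was above 0 in 2 libraries, both of them shAPC. WNT10B and WNT1 lie 6.69 kb apart on chromosome 12. WNT10B averaged 0.323 TPM and reached 0.821 TPM in CTNNB1 replicate 1, and WNT1 was above 0 in 1 library. WNT9A and WNT3A, 59.2 kb apart on chromosome 1, were both at 0 in all libraries. WNT3 and WNT9B lie 46 bases apart on chromosome 17, with means of 0.105 and 0 TPM. In the authors' deposited tables WNT10B stood at 1.19 in the CTNNB1 comparison (adjusted p = 0.22) and WNT8B at -2.50 in the APC comparison (adjusted p = 0.054), and neither reached the mean level tested here.

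Libraries of a group did not vary evenly among the members. In shAPC replicate 2, 13 of the 19 members with a mean of at least 1 TPM had their highest level of the group, where 25.3% of all genes did. In shAPC replicate 3, 13 had their lowest, where 51.5% of all genes did. In shNT1 replicate 3, 13 had their highest, where 55.3% of all genes did. These counts were made after the values had been seen and no test was run on them.

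ROR1-AS1, annotated on the other strand of ROR1, was at 0 in all libraries. BCL2L14, which overlaps LRP6 on the other strand, was at 2.48 ± 0.12 TPM in GFP, 3.06 ± 0.28 TPM in CTNNB1, 4.58 ± 0.27 in shNT1 and 4.97 ± 0.87 in shAPC (SD, n = 3 each) and was called in neither arm.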
